A study of Mus musculus with 16 samples.

Results

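The crosslinking time course at 1 mW laser power and 1x Dazl consists of 3 libraries of a kinetic crosslinking and immunoprecipitation experiment (KIN-CLIP), 1 library each at 30, 180 and 680 s. The 3 were picked by the laser power and Dazl level that their labels give, and are 3 of the 12 libraries used here. In every library, stretches of RNA linked to Dazl carry a normalized coverage, and stretches of all 12 libraries lying at most 10 nt apart were joined into 8338 regions. The value of a region is its coverage summed over positions, and the lowest value any region can take is 1. The question asked of these libraries was which RNAs stood above that lowest value at 30 and 180 s, and which did so only by 680 s.

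The study used GC-1 spg, an immortalised mouse line derived from spermatogonia, in a single monoclonal derivative that makes Dazl when doxycycline is added. All groups are that same doxycycline-induced line, and they differ in crosslinking time (30, 180 or 680 s), in the power of a pulsed ultraviolet laser (1 or 2.6 mW) and in the Dazl level (1x or 4.2x). The study has 16 samples, and the 4 samples of 0 s were not analysed here, so no value below has an uncrosslinked background. Every condition has 1 library, so no difference has a replicate check, no p-value is given, and all values describe single libraries of 1 clone. The depth in reads is unknown, so no counting error is given either.

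Dazl is an RNA-binding protein of germ cells that uses an RNA recognition motif to bind short GUU-containing stretches, many of them in the 3′ ends of messenger RNAs, and it is known for its part in the translation and stability of germ cell messages. In a KIN-CLIP experiment, ultraviolet light makes a covalent bond between the protein and RNA it touches, and the reverse transcriptase stops near that bond, which marks the site. Crosslinked RNA builds up while the light is on, so the exposure time limits how many links an RNA can have gathered.

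The sequence under a region could be read where it lay wholly inside a RefSeq promoter window (250 bases before to 50 bases after a gene start, 32851 windows, GRCm38.p6, the assembly called mm10) or a RefSeq miRNA hairpin. This held for 150 regions in the windows, of which 113 were 17 nt long. The trinucleotide GTT was searched on both strands, which means as GTT or its complement AAC, and the pair does not overlap with another motif searched. It stood at positions 8 to 10, the centre of the region, in 53 of the 113 regions (46.9%), 37 of them as GTT and 16 as AAC on the strand of the window. At each of the other 14 positions it stood in 0 to 4 of the 113 regions, and over all positions of all windows its share was 2.4%. Anywhere in the region it was present in 65 of 113 (57.5%), against 31.0% of all 17-nt stretches of these windows. The following 8 regions lie in the window of their own gene and are shown because they include both early and late regions, with and without the central trinucleotide. Luc7l2 and Ccdc151 lie before the gene start, at offsets of -219 and -157 bases, and the others at -25 to 32. The files give no strand, so a region may come from another RNA than that of the named gene. All are from RefSeq, GRCm38.p6, on the strand of the gene, 5′ to 3′, with capitals for a central GTT or AAC.
Luc7l2, chr6:38555504-38555520, early: tttatttGTTtttgtga
Stk11, chr10:80115770-80115786, early: gtccaccGTTgcgacgt
Ddit4l, chr3:137623671-137623687, early: caggtgggcgtgccggc
Triap1, chr5:115341232-115341248, early: tcagaatgcgtcgccgt
Gigyf2, chr1:87327030-87327046, late: atcttgtGTTgttgagg
Ccdc151, chr9:22002775-22002791, late: gccagcgAACacgcagg
Dad1, chr14:54253895-54253911, late: gcccgctAACgcgcacg
Igfbp4, chr11:99041264-99041280, late: cccgccgcctgctgggc

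Of these, the Luc7l2 region was valued 2 at 30 s, 1 at 180 s and 5 at 680 s. The Stk11 region went from 2 and 1 to 21. Ddit4l and Triap1 were at 4 and 3 at 30 s, both at 2 at 180 s, and at 7 and 10 at 680 s. These 4 were thus above the lowest value at the first exposure, with and without the trinucleotide. Gigyf2 and Ccdc151 were at 1 at both early times and at 21 at 680 s, Dad1 reached 14 and Igfbp4 16. Among the 113 regions, 8 of the 53 with a central GTT or AAC and 7 of the 60 without were above 1 at 30 s, and their medians at 680 s were 7 and 7.5. The windows cover gene starts only, where a small part of the regions lies, so these shares do not describe all regions.

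A further 7 regions lay wholly inside hairpins of 6 miRNAs, and all 6 of those that were 17 nt long carried GUU or AAC at the same central positions. The 4 that came from hairpins above the lowest value at 680 s are shown on the strand of the annotated hairpin, again from RefSeq with the central letters in capitals, to compare their centres. The strand of the linked RNA is not given in these files.
Mir27a, chr8:84208719-84208735: aagucguGUUcacagug
Mir21a, chr11:86584093-86584109: ucauggcAACagcaguc
Mir3064, chr11:106782727-106782743: ugugcaaAACuccguac
Mir5114, chr19:44303209-44303225: ucuugcaGUUccuguuc

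All 4 regions were at 1 at 30 and at 180 s. At 680 s, Mir27a and Mir21a were at 5, Mir3064, which lies within Ddx5, was at 18, and Mir5114, which lies within Scd2, was at 17. The regions in Mir31 and Mir431 were at 1 at all 3 times. A region inside a hairpin can come from the host transcript as well as from the miRNA precursor, and these files do not tell which.

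The 3 libraries covered the same regions at very different levels. Their totals were 14910 at 30 s, 11271 at 180 s and 79527 at 680 s, at each time the lowest of the 4 series. The total at 180 s was 0.756 times that at 30 s, and the total at 680 s was 5.33 times that at 30 s. With the lowest value that the width of each region allows taken off, 5368, 1729 and 69985 remained, and these ratios were 0.322 and 13.0. In the other series the 680 s total was 2.06 times (1 mW, 4.2x), 2.22 times (2.6 mW, 1x) and 1.45 times (2.6 mW, 4.2x) that at 30 s. The median region was at 1, 1 and 8 at the 3 times, and the highest at 66, 37 and 315. Coverage per covered position averaged 1.07, 1.02 and 1.35.

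Before any course is read, 2 properties of the deposited values matter. The first is that the values of the 30 and 180 s libraries are linked: from 30 to 180 s the value of 0 of 8338 regions grew, 7032 were equal and 1306 fell below it. In the other 3 series 912 (1 mW, 4.2x), 2437 (2.6 mW, 1x) and 3156 (2.6 mW, 4.2x) regions were higher at 180 s. Likewise 0 regions fell from 180 to 680 s, while 73 stood at 680 s below their 30 s level. These last counts are not particular to this course: from 180 to 680 s, 0, 49 and 0 regions fell in the other 3 series, in the same order, and 607, 666 and 0 stood at 680 s below their 30 s level. The 180 s library can therefore not be read as a measurement separate from the others, and no source used here states the step that links them.

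The second property is that the lowest possible value grows with the width of a region. A region of at most 17 nt, the size of a single site, can be at 1, but all 1039 wider regions hold several sites and had at least 2 in every library. These 1039 count as above 1 at all times by their width alone. Counts are therefore given first for all regions against the value of 1, then for the 7299 regions of at most 17 nt, and then against the lowest value that a region's width allows. A joined region can hold more sites than that lowest value assumes, so its count above it is an upper limit.

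At 30 s, 2164 of 8338 regions (26.0%) were above 1, at 180 s 1629 (19.5%), and at 680 s 7672 (92.0%). By course, 1629 regions were above 1 at all 3 times, 534 at 30 and 680 s but not at 180 s, and 5509 (66.1%) at 680 s only. The remaining regions were 665 at 1 throughout and 1 that was above 1 at 30 s alone. Among regions of at most 17 nt, 1125 of 7299 (15.4%) were above 1 at 30 s, 590 (8.08%) at 180 s and 6633 (90.9%) at 680 s. Against the lowest value of the width, the counts were 1640, 989 and 7628 regions. All of these shares put most regions of this course at the lowest value until the longest exposure.

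**Figure D1:**
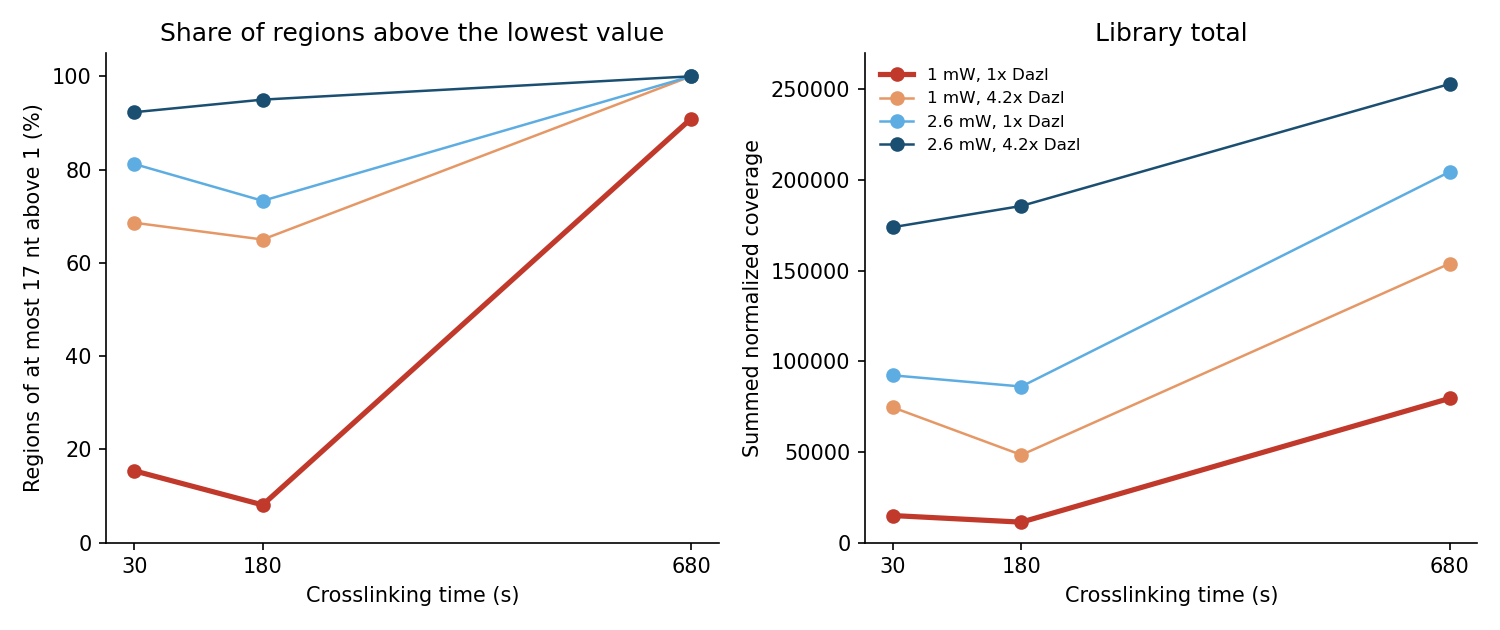
Left, percent of the 7299 regions of at most 17 nt with a value above 1; right, summed normalized coverage of the library, both against crosslinking time in seconds, with 1 point per library and a line per combination of laser power and Dazl level. The 1 mW, 1x libraries (thick line) lie at 15.4%, 8.08% and 90.9%, below the other 3 series at each time.

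The same regions were widely covered at 30 s in the other series. Of the regions of at most 17 nt, 68.6% were above 1 at 30 s at 1 mW with 4.2x Dazl, 81.2% at 2.6 mW with 1x and 92.3% at 2.6 mW with 4.2x, as the plot of the share of regions over time shows. Of the 5509 regions that were above 1 only at 680 s in the 1 mW, 1x course, 69.0%, 84.5% and 94.1% were above 1 at 30 s in those 3 series, with medians there of 5, 6 and 16. Their median at 680 s in the 1 mW, 1x library was 7. At 680 s, all 5509 were above 1 in the other 3 series. Of the 1125 regions above 1 at 30 s here, 117 (10.4%), 70 (6.22%) and 11 (0.978%) were at 1 at 30 s in the other 3 series, where 31.4%, 18.8% and 7.74% of all regions of at most 17 nt were.

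Few regions stood far above 1 at the early times. At 30 s, 6174 of the regions of at most 17 nt were at 1, 474 at 2 and 207 at 3, so the members just inside the threshold were the largest class above it. At 180 s, 6709 were at 1, 398 at 2 and 136 at 3. At 680 s, 666 were at 1, 330 at 2 and 381 at 3, and the highest stood at 46, against 24 at 30 s and 9 at 180 s.

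**Figure D2:**
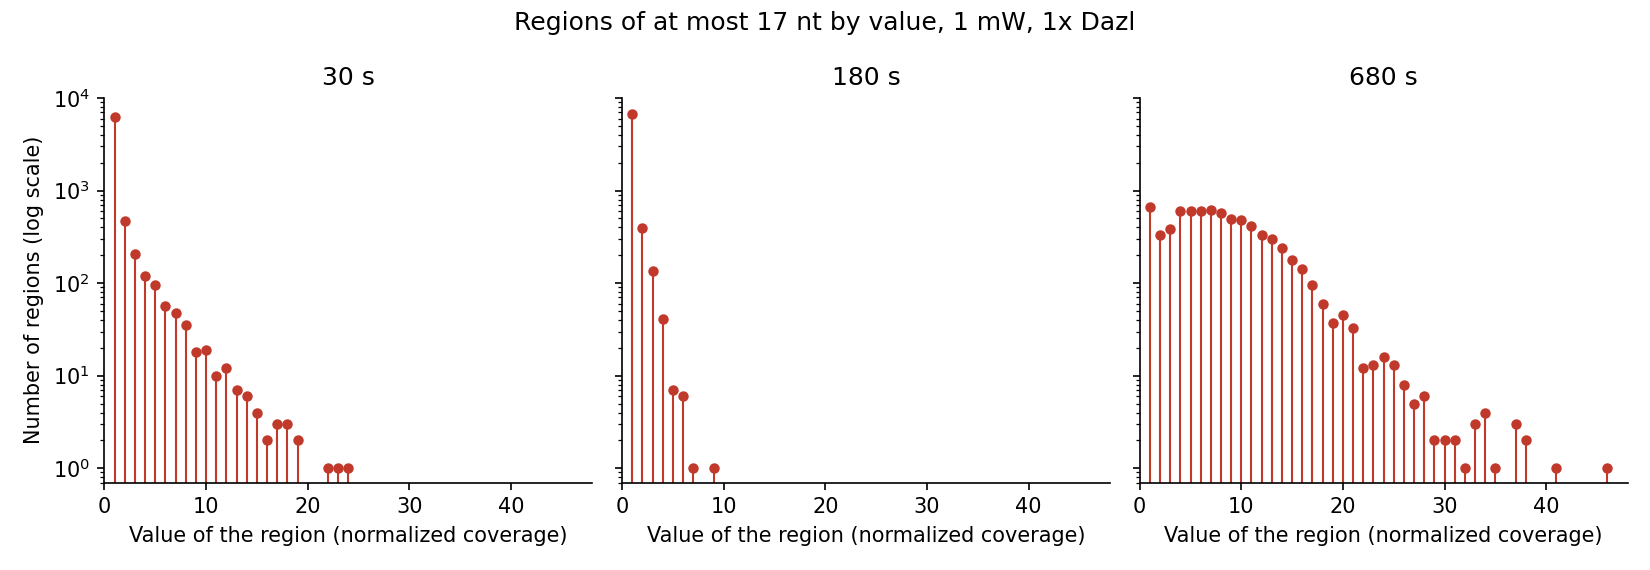
Number of regions of at most 17 nt (log scale) at each value of normalized coverage, in the 30, 180 and 680 s libraries at 1 mW and 1x Dazl. The values end at 24, 9 and 46, and 6174, 6709 and 666 regions sit at 1.

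The 180 s value of a region went with its 30 s value, but these libraries are linked, so no loss of coverage can be read from it. Of the 474 regions at 2 at 30 s, 331 (69.8%) were at 1 at 180 s, and of the 207 at 3, 138 (66.7%) were. Of the 272 regions at 4 to 6, 66 (24.3%) were at 1 at 180 s. None of the 101 regions at 7 to 9 or of the 71 at 10 to 24 fell to 1, and the median of both sets at 180 s was 3. At 680 s the regions at 7 to 9 had a median of 10, and those at 10 to 24 a median of 12. Of the latter, which were picked as the highest at 30 s, 37 of 71 stood below their 30 s value at 680 s.

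Early regions were, on the whole, those with more coverage at 680 s, but the overlap was wide. Of regions of at most 17 nt at 2 to 4 at 680 s, 8.29% had been above 1 at 30 s, of those at 5 to 9 14.6%, and of those at 10 to 14 20.1%. The share was 28.3% at 15 to 19 and 55.5% of the 173 regions at 20 to 46. Over the 7299 regions, Spearman's rank correlation was 0.23 between 30 and 680 s and 0.73 between 30 and 180 s. The 680 s library had a rank correlation of 0.66, 0.69 and 0.72 with the 680 s libraries of the other series. These correlations are across regions, which share genes and libraries, and are descriptions without a test.

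**Figure D3:**
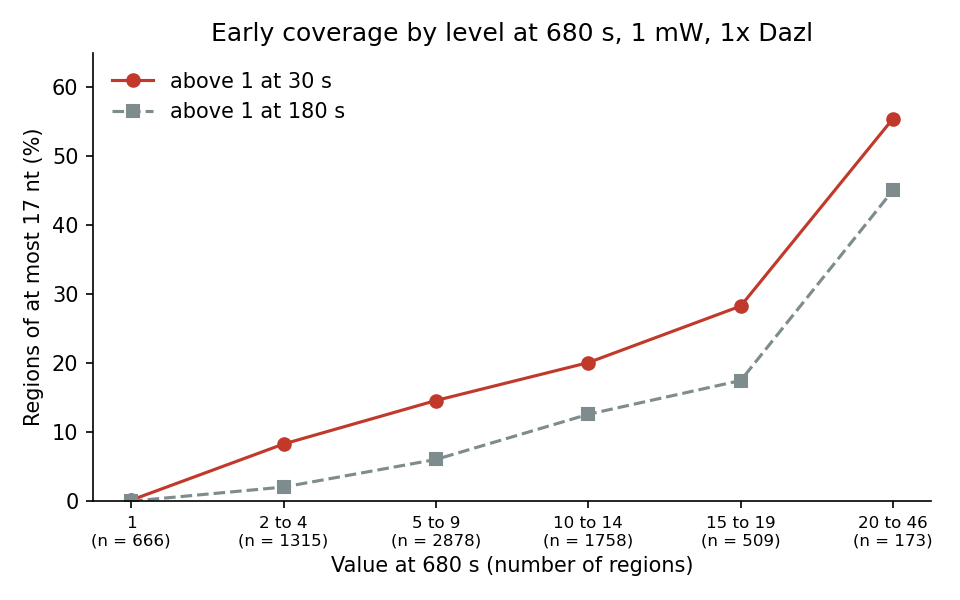
Percent of regions of at most 17 nt above 1 at 30 s (circles) and at 180 s (squares) by their value at 680 s, with the number of regions in each class, 1 mW, 1x Dazl. The share above 1 at 30 s goes from 0.15% of regions at 1 to 55.5% of regions at 20 to 46.

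The position of a region in its gene could be measured for 5411 regions of at most 17 nt whose gene has a strand in the RefSeq promoter table, with distances taken to either end of the gene. Of these, 1858 (34.3%) lay within 1000 nt of the 3′ end and 394 (7.28%) within 1000 nt of the start, where even placement along the same genes would put 6.68%. Regions above 1 at 30, 180 and 680 s lay within 1000 nt of the 3′ end in 41.0%, and their median distance to it was 1418 nt. For regions above 1 at 30 and 680 s only it was 33.9% and 1758 nt, and for those above 1 at 680 s only 34.7% and 1865 nt. Regions at 1 throughout lay there in 25.5%, with a median distance of 4187 nt, and 13.0% of them were within 1000 nt of the start. Coverage near the 3′ end was thus shared by early and late regions and was least frequent among regions that stayed at 1. Exons, introns and untranslated regions were not annotated here.

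Regions above 1 at all 3 times also more often had a close neighbour, which could be of any course or width. The next region lay within 100 nt for 57.6% of them, for 41.4% of regions above 1 at 30 and 680 s only, for 46% of regions above 1 at 680 s only and for 30.1% of those that stayed at 1, against 45.2% of all. Of the regions that stayed at 1, 42.1% were their gene's only region, against 20.1% of those above 1 at 680 s only. Of the 501 regions under 17 nt, 350 stayed at 1 (69.9%), against 4.63% of the regions of exactly 17 nt. The width of a region comes from the positions covered in the 12 libraries, so it is not a trait separate from coverage.

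Regions fell in 3203 genes, 3166 of them protein-coding. With any region above 1 counted, 1206 genes (37.7%) were above at 30 s, 949 (29.6%) at 180 s and 2893 (90.3%) at 680 s, and 1687 (52.7%) were above only at 680 s. Against the lowest value of the width, 981 genes (30.6%) were above at 30 s, 627 (19.6%) at 180 s and 2873 (89.7%) at 680 s, and 1892 (59.1%) only at 680 s. No gene had a higher value at 180 s than at 30 s: 2325 were equal and 878 lower. The chance of holding an early region went with the number of regions. By the lowest value of the width, 14.0% of the 1576 genes with 1 region were above at 30 s, 51.4% of the 555 genes with 3 to 4 regions and 98.8% of the 81 genes with 10 to 62 regions. Gene values below are sums over a gene's regions, and the excess is that sum less the lowest that the widths of its regions allow.

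The 12 genes described first had the largest excess summed over 30 and 180 s, and Thbs1 led them. Thbs1, which encodes the matricellular glycoprotein thrombospondin 1, had 28 regions and stood at 119 after 30 s, 75 after 180 s and 510 after 680 s. A single 86-nt region at chr2:118126897-118126982 held 66, 36 and 236 of it, which was 55.5% of the gene's value at 30 s. Of the 28 regions, 9 were above the lowest value of their width at 30 s, 8 at 180 s and all 28 at 680 s.

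Pdia3, a protein disulfide isomerase of the endoplasmic reticulum, was at 79, 46 and 380 over 9 regions. Its widest region, 150 nt at chr2:121437783-121437932 near the 3′ end of the gene, held 65, 37 and 315, and it was 1 of only 2 regions of the gene above the lowest value at 30 s. Canx, the lectin chaperone calnexin of the same compartment, was at 68, 46 and 407 over 22 regions. Its region at chr11:50296015-50296031 stood at 23, 9 and 34 and was the highest region of at most 17 nt at 180 s. Rpn2, a subunit of the oligosaccharyltransferase that attaches sugars to new proteins, was at 44, 27 and 209, with 52.3% of its 30 s value in a 21-nt region. In these 3 genes, 1 region that lay within 2066 nt of the gene's 3′ end held 33.8% to 82.3% of the 30 s value.

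The early genes also included adhesion and matrix genes. Itgb1, the integrin beta 1 chain, was at 64, 36 and 279 over 14 regions, 7 of them above the lowest value at 30 s. Timp2, an inhibitor of matrix metalloproteinases, was at 77, 44 and 416 over 29 regions, with no region above 11.7% of its 30 s value. S100a6, a small calcium-binding protein, was at 54, 21 and 144, and 85.2% of its 30 s value lay in a 42-nt region at the gene's 3′ end. S100a6 had reached 34.3% of its 680 s excess at 30 s, against 17.5% for Thbs1 and 11.7% for Timp2. The summed excess of all genes at 30 s was 7.75% of that at 680 s. The 12 genes were chosen by their early excess, which favours a share above that of all genes. Neat1 had the lowest share of the 12, at 9.29%.

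The nuclear long noncoding RNA Neat1, the scaffold of paraspeckles, was at 121, 80 and 668 over 62 regions. At 30 s 16 of its regions were above the lowest value of their width, at 180 s 11 and at 680 s all 62. Scd2, a stearoyl-CoA desaturase, was at 89, 50 and 517 over 27 regions, 7 of them above at 30 s. Lnpep, a membrane aminopeptidase, was at 50, 26 and 166, the ubiquitin ligase gene Nedd4 at 47, 20 and 134, and the kinase gene Slk at 46, 23 and 174. The last 3 had reached 23.2%, 28.7% and 20.5% of their 680 s excess at 30 s. All of these 12 genes, which were chosen by their summed excess at 30 and 180 s, were lower at 180 s than at 30 s and higher at 680 s than at either.

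At the other end stood genes whose every region was at 1 at 30 and at 180 s and which were well covered at 680 s. No gene with a region wider than 17 nt could enter, as such a region is at 2 or more. Among those left out was Hsp90ab1, at its lowest value of 7 at both early times and at 97 at 680 s. Rps3, a protein of the small ribosomal subunit, had 11 regions and was at 11 at both early times and at 115 at 680 s. Since 2 of its regions are shared with another gene and ribosomal protein genes have near-identical copies, its value is uncertain. Ext1, a polymerase of heparan sulfate chains, went from 9 to 88 over 9 regions, and Sqle, squalene epoxidase of sterol synthesis, from 9 to 75 over 9 regions. Bhlhe40, a transcriptional repressor, went from 6 to 68 and Anxa1, a membrane-binding annexin, from 5 to 66. In these 5 genes no region was above 17 at 680 s.

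Sun2, an inner nuclear membrane protein, went from 7 to 55 and Upk1b, a uroplakin, from 5 to 54. Vps29, a retromer subunit, went from 4 to 52 over 4 regions, of which 2 reached 21 and 19. Gfm2, a factor of mitochondrial ribosome recycling, went from 4 to 51, with a region at chr13:97161106-97161122 that rose from 1 to 28. Etnk1, an ethanolamine kinase, went from 7 to 50 and the lysosomal membrane protein gene Lamp2 from 7 to 49. These genes were chosen for their value at 680 s among genes at 1 before, so that their course is a description.

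The same late genes were covered at 30 s elsewhere in the series. Anxa1 was at 31, 22 and 65 at 30 s (1 mW with 4.2x, 2.6 mW with 1x and 2.6 mW with 4.2x), Rps3 at 118, 164 and 253, and Ext1 at 43, 34 and 143. Gfm2 was at 14, 10 and 32. Thbs1, for comparison, was at 515, 600 and 1222 in those libraries. No difference between series was tested, since each rests on 1 library a condition.

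A small set of genes had nearly their full 680 s coverage, or more, at 30 s. Among the 171 genes with an excess of at least 10 at 30 s, 8 had an excess at 680 s no larger than that at 30 s. Spg7, which encodes the mitochondrial protease paraplegin, has 1 region, at chr8:123079583-123079599, which was at 24, 4 and 12. Hoxc12, a homeobox gene, was at 17, 4 and 11, and Trim21, a ubiquitin ligase that binds antibodies, at 12, 2 and 8. Tagln2, an actin-binding transgelin, was at 18, 4 and 14, and Lpl, lipoprotein lipase, at 18, 4 and 16. Psmb7, a proteasome subunit, was at 12, 4 and 11, Arhgef10, a guanine nucleotide exchange factor, at 18, 4 and 17, and Sh3glb1, endophilin B1, at 15, 4 and 15. All but Lpl, which has 2, are covered by a single region of 17 nt. These 8 genes were chosen by the ratio of their 680 to 30 s excess, with 1 library a time, so their course is a description. Spg7 went from 14 to 33 between 30 and 680 s at 1 mW with 4.2x Dazl. It went from 8 to 41 at 2.6 mW with 1x, and was at 47 at both times at 2.6 mW with 4.2x.

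**Figure D4:**
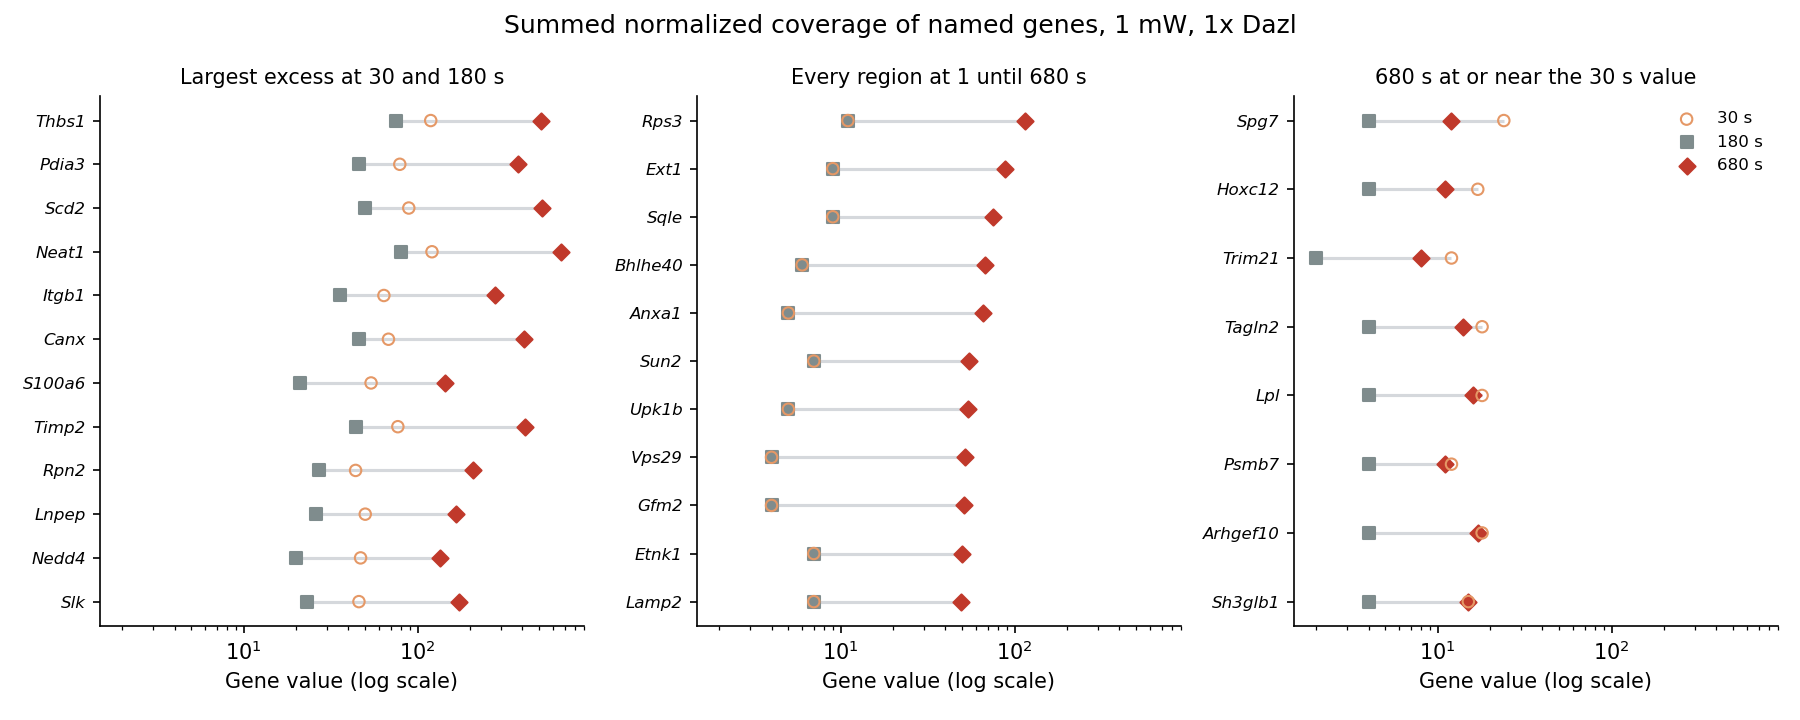
Summed normalized coverage (log scale) of single genes at 30 s (open circles), 180 s (squares) and 680 s (diamonds), 1 mW, 1x Dazl, 1 library each. The 12 genes on the left run from 119 to 510 (Thbs1) and from 46 to 174 (Slk) between 30 and 680 s, those in the middle sit at 1 per region until 680 s, and the 8 on the right have 30 s values at or above those at 680 s.

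Other genes stayed at the lowest value throughout. Cacna1f, a calcium channel subunit of the retina, and Cactin, a nuclear protein, each had 4 regions at 1 at all 3 times. Adgrv1 and Coa7 had 3 such regions and Krt39 and Gucy2d 2. In the 680 s library at 2.6 mW and 4.2x, which had the largest total, none of these 6 genes was above 12. They were the highest there of the 310 genes with every region at 1 in the 1 mW, 1x course.

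Gene lists were compared by the share of their regions above the lowest value of the width, which was 19.8% of 7838 regions in genes at 30 s and 12.0% at 180 s. The lists overlap in part, they were drawn up with earlier results of these data known, and no list was tested. Endoplasmic reticulum and cytosolic chaperone genes had 29 of 106 regions above at 30 s (27.4%) and 18 (17%) at 180 s. Among their regions of at most 17 nt the share at 30 s was 21.7%, against 15.6% over all genes. At 30 s 13 of 24 genes were above, and 11 were above at 680 s only, where 30.6% and 59.1% of all genes were. The list has a median of 3 regions a gene, against 2 over all genes, and genes with more regions were more often above. Beyond Canx and Pdia3, Calr, the chaperone calreticulin, was at 12, 8 and 86, Hsp90b1, the Hsp90 of this compartment, at 9, 8 and 65, and Manf, a stress-induced secreted factor, at 7, 6 and 54. The cytosolic Hsp90ab1 was at its lowest value of 7 at both early times and at 97 at 680 s.

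Matricellular and adhesion genes had 57 of 231 regions above at 30 s (24.7%) and 41 (17.7%) at 180 s, with 17 of 33 genes above at 30 s (30.6% of all genes) and 16 only at 680 s (59.1% of all genes), at a median of 4 regions a gene. Their summed excess at 30 s was 11.1% of that at 680 s, and Thbs1 gave 83 of the 304 units of it. Ccn2, the connective tissue growth factor, was at 42, 24 and 130, Fn1, fibronectin, at 32, 24 and 191, and Itgav, an integrin alpha chain, at 32, 24 and 193. Sdc4, the heparan sulfate proteoglycan syndecan 4, was at 34, 27 and 317 and had 3 of its 22 regions above at 30 s. Ctnnb1, beta-catenin, stayed at its lowest value of 12 until 680 s, when it was at 81.

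Collagen genes and their processing enzymes had 20 of 101 regions above at 30 s (19.8%). Col1a1 was at 77, 53 and 506, with 10 of 43 regions above at 30 s. Serpinh1, the collagen chaperone, was at 38, 22 and 266, and Col5a2 was at 12, 11 and 85 with 1 of 10 regions above at 30 s. Against the lowest value of the width, the share for collagen regions equalled that of all genes. Among regions of at most 17 nt it was 19.8%, against 15.6% over all genes. Actin cytoskeleton genes had 26 of 109 regions above at 30 s (23.9%), led at 680 s by Ezr, the membrane linker ezrin, at 23, 14 and 121. Actb, beta-actin, was at 8, 7 and 112 and had reached 1.89% of its 680 s excess at 30 s.

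SR and hnRNP splicing factor genes had 35 of 143 regions above at 30 s (24.5%) and 25 (17.5%) at 180 s. Among their regions of at most 17 nt the share at 30 s was 18.4%, against 15.6% over all genes. By gene, 15 of 34 were above at 30 s (30.6% of all genes) and 19 only at 680 s (59.1% of all genes). The median was 3.5 regions a gene. Hnrnpk was at 40, 27 and 211, Srsf6 at 38, 24 and 196 and Srsf1 at 27, 21 and 272. Nono and Srrm2 were at their lowest values of 5 and 7 at both early times and at 49 each at 680 s. Translation factor genes had 11 of 43 regions above at 30 s (25.6%). Eef2, the elongation factor that moves the ribosome, was at 16, 8 and 56, while Eif4g2, a scaffold of initiation, was at 4, 4 and 51. Ribosomal protein genes had 10 of 62 regions above at 30 s (16.1%), with 8 of 23 genes above (30.6% of all genes), and Rplp0, a stalk protein, was at 13, 12 and 135. Near-identical copies make the ribosomal protein values uncertain.

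Among lists of at least 20 regions, cytoplasmic RNA regulators and cell cycle genes had the lowest shares at 30 s. Genes of cytoplasmic RNA regulators had 10 of 89 regions above at 30 s (11.2%) and 4 (4.49%) at 180 s, and 2.73% of their 680 s excess at 30 s. Celf1, a GU-rich element binding protein, was at 19, 19 and 178, with 1 of 14 regions above at 30 s, and G3bp1, a core protein of stress granules, at 12, 12 and 110, with 1 of 9. G3bp2, its paralog, and Caprin1, a partner protein, were at their lowest values of 6 and 7 at both early times and at 50 and 39 at 680 s. Genes of mRNA decay and poly(A) factors had 5 of 27 regions above (18.5%), and Cnot6, a deadenylase, went from its lowest value of 9 to 58 at 680 s.

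Cell cycle genes had 2 of 30 regions above at 30 s (6.67%), and 10 of 12 genes were above at 680 s only, against 59.1% of all genes. The cyclins Ccnd2 and Ccnd1 were at their lowest values of 7 and 4 until 680 s, when they were at 44 and 30. The 2 that were above at 30 s were Cdkn1b, a cyclin-dependent kinase inhibitor, at 8, 4 and 30, and Ccng1, a cyclin induced by p53, at 7, 3 and 24. Receptors and ligands of growth factor signalling had 10 of 61 regions above at 30 s (16.4%). Tgfbr3, a co-receptor for TGF-beta, was at 13, 12 and 84, and Met, the receptor of hepatocyte growth factor, went from 7 to 68 at 680 s only.

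**Figure D5:**
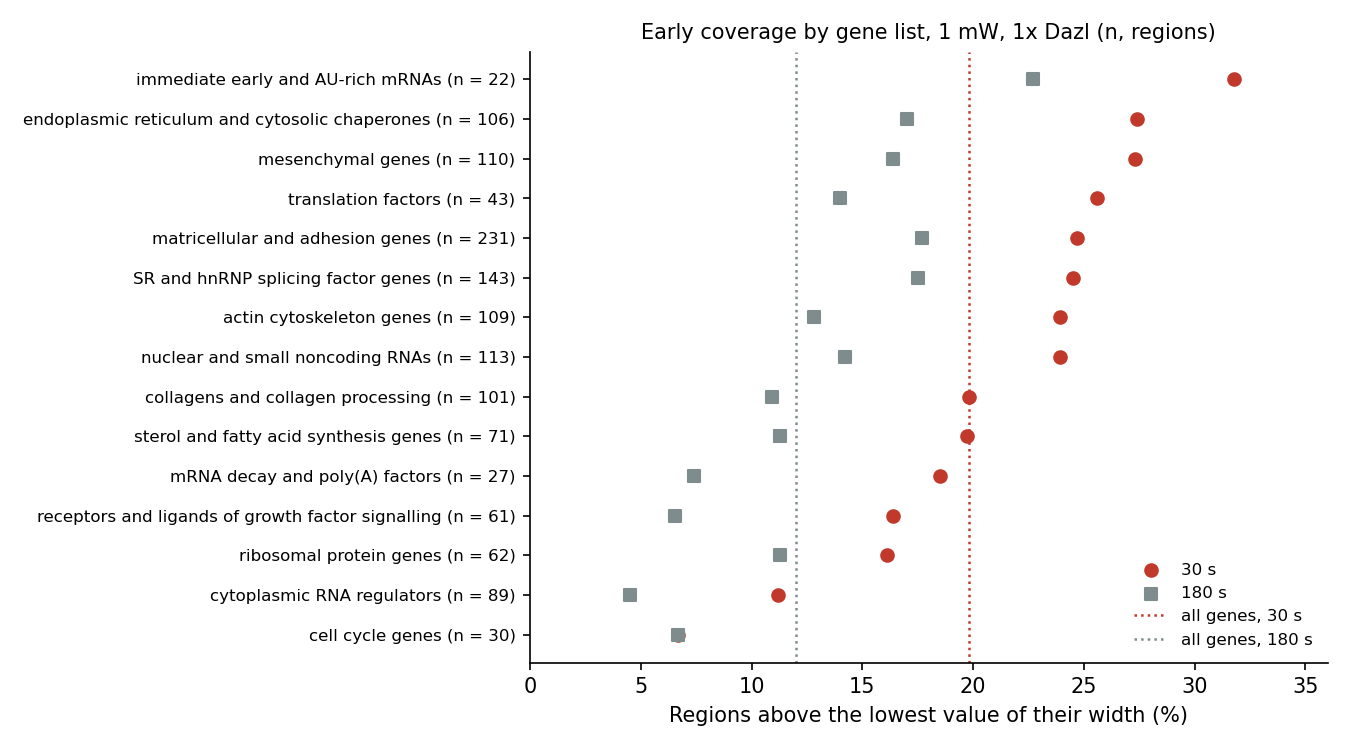
Percent of the regions of each gene list (n, regions; lists with at least 20 regions) above the lowest value of their width at 30 s (circles) and 180 s (squares), 1 mW, 1x Dazl, with dotted lines for the regions of all genes. All genes stand at 19.8% and 12.0%, cytoplasmic RNA regulators at 11.2% and 4.49%, and chaperone genes at 27.4% and 17%.

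Among smaller groups, immediate early and AU-rich mRNAs had 7 of 22 regions above at 30 s (31.8%). Jund, an AP-1 subunit whose 2 joined regions carry all of its value, was at 31, 20 and 189, and Id2, an inhibitor of helix-loop-helix factors, was at its lowest value of 8 until 680 s, when it was at 70. Of the regions of at most 17 nt in this list, 7.14% were above 1 at 30 s, against 15.6% over all genes, so the list's share came from wider regions. Sterol and fatty acid synthesis genes had 14 of 71 regions above at 30 s (19.7%), and Scd2 gave 58 of the 83 units of their excess. Fasn, fatty acid synthase, was at 18, 6 and 32, while Scd1 and Elovl5 were at the lowest value until 680 s, at 33 and 38 then.

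Nuclear and small noncoding RNAs had 27 of 113 regions above at 30 s (23.9%), 16 of them in Neat1 and 9 in Malat1. Malat1, a long noncoding RNA of nuclear speckles, was at 53, 45 and 613 over 38 regions and had reached 2.10% of its 680 s excess at 30 s, against 9.29% for Neat1. Rmrp, the RNA of a mitochondrial and nucleolar ribonuclease, went from 2 to 41. Replication-dependent histone genes had 1 of 8 regions above at 30 s. H4c8 went from 2 to 36 and H4c2 from 2 to 34, and histone genes of near-identical sequence make these assignments uncertain.

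The other list members that were above the lowest value of their width at both 30 and 180 s had 30 s values between 2 and 25. In matrix, adhesion and collagen genes they were Col1a2, Col17a1, Lamc1, Ctnna1, Dag1, Ccn1, Vcl, Lama5 and Cd44, and in cytoskeleton and chaperone genes Myh9, Cdc42, Cfl1, Wdr1, Arpc2, Actn1, Actn4, Iqgap1, Hsp90aa1, Hyou1 and Hspa4l. In splicing and RNA regulator genes they were Sfpq, Hnrnpl, Hnrnpu, Hnrnph1, Hnrnpa0, Hnrnpm, Rbm39, Tnrc6b, Larp4b, Smg1, Pabpn1 and the host transcript Snhg1. In genes of translation they were Rpl22, Rpl37a, Rpl13a, Rps12, Rpl34, Eif1a, Eif5a, Eif3c, Eif3d and Eif4ebp2, and in the remaining lists Id1, Fosl2, Acvr1b, Notch2, Cyp51 and Acsl3. Sparc, the matricellular protein osteonectin, was above it at 30 but not at 180 s, at 24, 17 and 232, as were Itga3, Txndc5, Dnaja2, Srsf2, Larp4, Eif4a1, Egr3, H4c11, Axl and Srebf2. Further members stood at the lowest value of their width until 680 s, when they were between 10 and 58. These were P4ha1, Spp1, Mmp14, Fbln5, Tpm1, Rhob, Pdia4, Cct2, Tcp1, Qk, Ptbp3, Zfp36l2, Tnrc6c, Cpeb4, Tob1, Upf2, Pan3, Eif2ak4, Plk2 and H2ac8.

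Few germ cell genes had a region. Of 32 germ cell genes 5 did, with 1 region each, and 0 of the 5 were above 1 at 30 or 180 s. Among all regions of at most 17 nt 15.4% and 8.08% were above 1 at those times, so 5 regions are too few to set germ cell genes apart. At 680 s, Boll, a relative of Dazl, was at 4, Mov10l1, a helicase of the piRNA pathway, and Rhox13, a homeobox gene, were at 2, and Ret and Sall4 were at 1. Boll was at 26 in the 30 s library at 2.6 mW and 4.2x. Of 17 markers of other testis cells, the 3 with a region were Wt1, Dhh and Kdr, at 1 at both early times and at 13, 11 and 3 at 680 s. Of 8 mesenchymal genes 6 had regions, 5 of them were above the lowest value at 30 s (30.6% of all genes and 98.8% of genes with 10 to 62 regions were), and they had a median of 16 regions. Their median value at 680 s was 211.5, against 12 over all genes. These values are coverage of RNA linked to Dazl and do not measure how much of an RNA the cells hold.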

How the data were processed

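Each of the 12 processed files lists genomic intervals with a deposited score, which the authors name normalized coverage: whole numbers, with no header and no strand. The submitters' processing notes name Bowtie2, FastQC and mm10. Tool versions, read counting, normalization and the choice of sites are not stated there, and the score is used as deposited by the authors. Totals ran from 11271 to 252932, and the depth in reads is unknown.

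Intervals of all 12 files at most 10 nt apart were joined (Python 3.11.15, pandas 2.3.3, numpy 2.4.6), and a region's value was the sum of width times score. The lowest value of a width is the fewest 17-nt sites, at most 10 nt apart, that span it. That floor was added after the data had been seen. Regions were given to genes of RefSeq GRCm38.p6 by gene span: 7838 lay in 1 gene or in 1 protein-coding gene among several (245), 314 lay in several genes and 186 in none. The steps were tested on simulated data.

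The members and gene lists were chosen with earlier results of these data known. Named genes were the 12 with the largest excess at 30 and 180 s, the 12 highest at 680 s among those with every region at 1 before, the 8 with the smallest ratio of excess at 680 to 30 s given an excess of at least 10 at 30 s, the 6 with the largest and smallest difference between 180 and 30 s, the 6 highest at 2.6 mW, 4.2x, 680 s among those always at 1, and in each list the 4 highest at 680 s and any above the floor at 30 and 180 s. Some genes that these rules take are not reported here. As no gene was higher at 180 s, no gene was named for a rise. Alternatives were other joining distances, floors, widths and gene rules.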

Additional observations from a re-analysis of the deposited data

Results flagged for a closer look

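The library total moved in opposite directions between 30 and 180 s in 2 of the 4 series. At 1 mW and 1x Dazl the 180 s total was 0.756 times the 30 s total, while at 2.6 mW and 4.2x Dazl it was 1.07 times. The total was also lower at 180 s in the other 2 series, at 0.648 times (1 mW, 4.2x) and 0.933 times (2.6 mW, 1x). Each ratio rests on 1 library a time, and the difference was not tested. At 1 mW and 1x Dazl the 30 and 180 s values are also linked, so no loss of coverage can be read from 0.756.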

How the results depend on the processing

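No paired analysis was possible because each condition has 1 library. The count of regions above the floor at 680 s and the counts above only at 680 s, for regions and genes, stayed within 1.5 times under every alternative run for them. With intervals joined when touching, the number of regions was 12192 in place of 8338. Of these 12192, 4163 were not above the floor at any of the 3 times, against 665 of 8338. With a floor passed from a value of 3, 1206 regions were above it at 30 s, 640 at 180 s, 640 at all 3 times and 1038 at none, and 426 genes were above at all 3 times and 521 at none. With regions of exactly 17 nt, 1119 were above at 30 s, 589 at 180 s, 589 at all 3 times and 315 at none, and the totals stood at 0.749 (180 to 30 s) and 5.57 (680 to 30 s). A gene counted when at least 50% of its regions were above gave 478 genes at all 3 times. With 1 taken off each region the ratios of totals were 0.446 and 10.8. With the lowest value of the width as floor, chosen after seeing the data, 989 regions were above at 180 s, 989 at all 3 times and 627 genes at all 3 times, and with it taken off the ratios were 0.322 and 13.0. Limiting genes to regions in 1 gene only moved 6 of 126 values of named genes, in 2 genes, and joining at 50 nt moved none of 132. Depth in reads is unknown, there are no replicates, and coverage of 0 is not listed.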

Other observations

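Some regions stood higher at 30 s at 1 mW and 1x Dazl than in the 30 s library with the largest total, 2.6 mW and 4.2x Dazl. There were 39 such regions among the 7299 of at most 17 nt (0.534%), seen only after their values were known. Their differences ran from 1 to 11, and the regions described next are among those with the largest. A Col1a1 region at chr11:94951529-94951545 was at 13 in the first and 2 in the second, and a Cd164 region at chr10:41530242-41530258, in the gene of the sialomucin endolyn, was at 12 and 4. At 680 s both regions were at 12 at 1 mW and 1x, and they were at 35 and 34 at 2.6 mW and 4.2x.

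The 73 regions that stood lower after 680 s than after 30 s had medians of 10, 3 and 8 at the 3 times, in order. After Spg7, the largest drop was in a region of Cmtm7, a chemokine-like membrane protein gene, at chr9:114781943-114781959, which was at 22, 4 and 11. A region of Gas1, a growth arrest-specific membrane protein gene, at chr13:60176566-60176582 was at 15, 3 and 8. In the 30 s library at 2.6 mW and 1x Dazl both of these regions were at 2. The Cmtm7 and Gas1 regions were at 3 and 7 at 30 s at 1 mW and 4.2x, and at 19 and 21 at 2.6 mW and 4.2x.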
